A study of Drosophila melanogaster with 2 samples.

Results

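The genes described here are 10 Drosophila melanogaster genes that make, store or release neutral lipid, out of 13968 annotated protein-coding genes: ATPCL, AcCoAS, ACC, FASN1, Desat1, Zw, Gpat4, Lpin, mdy and bmm. They were chosen by name, and every peak summit of Usf-GFP from 2 kb upstream to 2 kb downstream of each gene was recorded. Usf-GFP binding had been profiled by chromatin immunoprecipitation with sequencing (ChIP-seq), with an antibody against GFP, in whole embryos of both sexes aged 0 to 16 hours. The embryos carried a stable transgene that encodes Usf with GFP at its C terminus. The study had 1 group of 2 samples, biological replicates 3 and 4, and no control library was analysed here. The labels do not say how the replicates were collected, and chromatin of the whole embryo mixes all of its tissues, so a peak cannot be placed in the fat body or any other organ.

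The 4 peak lists used were a relaxed list for each replicate, a relaxed list from the pooled reads, and a final set chosen by IDR (irreproducible discovery rate, a filter for peaks that rank alike in both replicates). The relaxed lists hold weak peaks together with background. The IDR set held 2767 peaks with signals from 71.3 to 1798, and every one of them was among the 2767 strongest of the 21315 pooled peaks. The set thus equals a cut by pooled signal, and a single peak in it need not rank alike in both replicates. The relaxed lists of replicate 3 and replicate 4 held 28459 and 29246 peaks. The signal is the authors' own value per peak on a scale that is not stated, so signals are compared only within a list, and replicates are set side by side by rank, where 1 is the strongest. Read depth is unknown.

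Fatty acids are built from acetyl-CoA, which ATP citrate lyase (ATPCL) makes from citrate and acetyl-CoA synthetase (AcCoAS) from acetate. Acetyl-CoA carboxylase (ACC) turns it into malonyl-CoA, and fatty acid synthase (FASN1) joins these units using NADPH, part of which comes from glucose-6-phosphate dehydrogenase (Zw). Desat1 puts a double bond into the finished chain. Gpat4, Lpin and mdy then build triglyceride on glycerol phosphate, and the lipase encoded by bmm, brummer, breaks that triglyceride down again at the lipid droplet. In mammals the upstream stimulatory factors, relatives of fly Usf that bind the E-box CACGTG, are known regulators of the fatty acid synthase gene.

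The sequences below are the 7 IDR summits that carry the main patterns among these genes: summits just before a transcription start site (TSS), strong summits inside introns, and a strong summit that lies beside a neighbouring gene. All are from the Release 6 (dm6) genome as held by RefSeq, read 5′ to 3′ on the strand of the lipid gene, with up to 100 bp to each side of the summit and any annotated untranslated sequence cut away. Capitals mark an E-box of the form CANNTG, or one of the hexamers ACAGTG, the overlapping CAGTGC, or the separate hexamer CGATAG on either strand. The hexamers were known from earlier results of these data, and their share outside the summits is not given here. The Desat1 internal promoter was added after its values had been seen.
FASN1, promoter summit (chr2L:3056266-3056466, plus strand): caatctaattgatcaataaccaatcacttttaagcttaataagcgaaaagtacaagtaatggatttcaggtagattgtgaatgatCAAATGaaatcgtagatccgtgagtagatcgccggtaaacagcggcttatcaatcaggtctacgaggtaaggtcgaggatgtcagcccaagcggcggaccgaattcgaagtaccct
AcCoAS, internal promoter summit (chr3L:21276420-21276620, minus strand): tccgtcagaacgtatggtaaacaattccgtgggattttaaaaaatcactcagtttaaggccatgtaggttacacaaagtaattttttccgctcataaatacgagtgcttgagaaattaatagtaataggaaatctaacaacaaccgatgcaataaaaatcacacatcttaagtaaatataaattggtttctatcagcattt
Desat1, internal promoter summit (chr3R:12443277-12443477, plus strand): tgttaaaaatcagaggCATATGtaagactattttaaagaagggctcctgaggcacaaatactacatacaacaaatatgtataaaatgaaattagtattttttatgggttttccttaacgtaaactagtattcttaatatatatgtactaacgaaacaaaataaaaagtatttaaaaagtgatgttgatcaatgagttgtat
mdy, promoter summit (chr2L:16816369-16816569, plus strand): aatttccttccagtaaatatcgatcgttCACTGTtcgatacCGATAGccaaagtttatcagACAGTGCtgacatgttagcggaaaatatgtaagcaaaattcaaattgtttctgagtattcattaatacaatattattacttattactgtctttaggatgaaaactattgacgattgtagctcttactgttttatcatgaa
bmm, intron summit (chr3L:14784988-14785188, minus strand): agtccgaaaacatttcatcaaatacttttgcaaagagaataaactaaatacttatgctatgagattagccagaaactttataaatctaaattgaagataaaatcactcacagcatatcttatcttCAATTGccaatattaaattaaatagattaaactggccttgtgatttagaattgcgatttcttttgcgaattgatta
Zw, intron summit (chrX:19668507-19668707, plus strand): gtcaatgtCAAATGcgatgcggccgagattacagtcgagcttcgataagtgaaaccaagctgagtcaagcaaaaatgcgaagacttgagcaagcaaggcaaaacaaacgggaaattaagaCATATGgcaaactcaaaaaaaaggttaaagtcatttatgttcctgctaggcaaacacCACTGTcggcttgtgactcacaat
CG18549 promoter summit downstream of Desat1 (chr3R:12449103-12449295, plus strand): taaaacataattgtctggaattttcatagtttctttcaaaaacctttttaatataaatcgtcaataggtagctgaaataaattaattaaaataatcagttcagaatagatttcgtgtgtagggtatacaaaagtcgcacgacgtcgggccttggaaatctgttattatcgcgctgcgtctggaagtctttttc

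None of these windows held CACGTG. FASN1 had a single CAAATG 12 bp upstream of its summit, and the AcCoAS window held no CANNTG at all. The mdy window held all 3 of the hexamers and no CANNTG. Over all 13 IDR summits around the 10 genes, including those not shown, GC content within 100 bp of the summit ran from 25.9% at Desat1 to 42.8% at Zw with a median of 31.3%, against a median of 34.3% over all 2767 IDR summits.

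Of the 10 genes, 8 had a promoter summit, meaning here an IDR summit no more than 1 kb from one of their own TSSs: AcCoAS, FASN1, Desat1, Zw, Gpat4, Lpin, mdy and bmm. Over all coding genes the share was 15.3%. Most of the 10 genes have several start sites, and 7 of the 9 with 2 or more annotated TSSs had such a summit, where the share over all coding genes with 2 or more TSSs was 26.0%. Counting the gene body and 2 kb on each side, 9 of 10 had an IDR summit, against 24.3% of all coding genes and 34.9% of the 2561 coding genes whose length fell in the same range, from 4796 to 19669 bp. The ninth gene was ATPCL, whose only such summit lay at the promoters of its neighbours. ACC had none. No test of these counts was made, because the genes were listed with results of these data known.

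**Figure D1:**
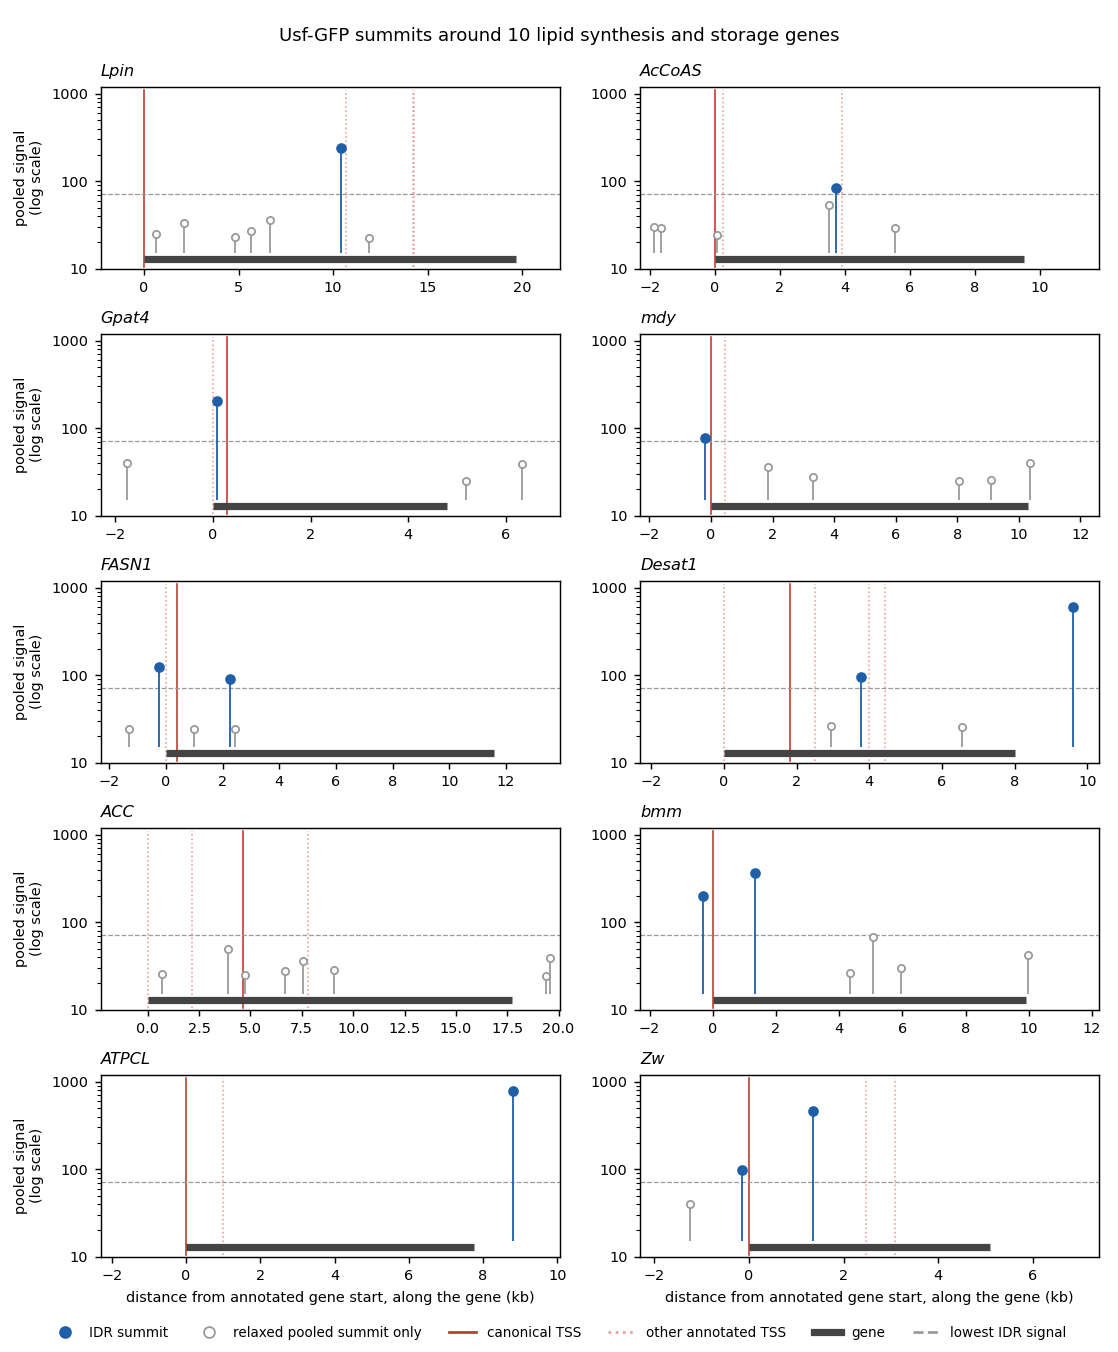
Summits of the pooled list around each of the 10 genes, by distance along the gene from its annotated start (x axis, kb) and by the authors' pooled signal (y axis, log scale). Filled circles are IDR summits and open circles are summits of the relaxed list alone. At Lpin, AcCoAS and Desat1 the IDR summit nearest to a TSS stands at an internal start site, while at ATPCL the 1 summit shown, with a signal of 788.4, lies past the end of the gene.

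The acetyl-CoA suppliers differed. ATPCL (FBgn0020236, 2R, 15993531–16001290, minus strand) had a single pooled summit in the whole range, at 15992491, which was 1040 bp beyond its 3′ end. This was among the strongest peaks of the data, with a pooled signal of 788.4 (rank 26), 396.9 (rank 39) for replicate 3 and 386.2 (rank 19) for replicate 4. It lay 83 bp downstream of a TSS of CG8320 and 116 bp upstream of a TSS of Pex11ab, a peroxisome gene that faces away from it, and 7796 bp from the nearer of the 2 TSSs of ATPCL. At those TSSs the pooled list held nothing within 1 kb. Replicate 4 alone had 2 weak summits there, with signals of 17.2 (rank 10752, in an intron) and 16.5 (rank 11885, in a coding exon), and replicate 3 had none.

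AcCoAS (FBgn0012034, 3L, 21270722–21280243, minus strand) has 3 annotated TSSs. Its IDR summit at 21276520 lay in an intron, 175 bp upstream of the innermost TSS, at 21276345, and 3723 bp downstream of the canonical one, the TSS of the transcript that the annotation marks as canonical. The pooled signal was 83.0 (rank 2267), and replicate 3 had 43.2 (rank 2484) at a summit 32 bp away. Replicate 4 had no summit within 100 bp, and its nearest, 152 bp away, had a signal of 43.9 (rank 1990). A second pooled summit stood further upstream, 376 bp from the innermost TSS, with a signal of 53.2 (rank 3935). Replicate 3 thus had a summit at each of these positions, while replicate 4 had 1 between them. The canonical start carried a relaxed pooled summit of 24.5 (rank 16882).

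ACC (FBgn0033246, 2R, 7974115–7991862, minus strand) had no IDR summit in the range although it has 4 annotated TSSs. Its highest pooled summit, at 7987944 in an intron, had a signal of 49.4 (rank 4340), below the lowest IDR signal of 71.3. The replicates placed it at 22.4 (rank 7299, replicate 3) and 27.8 (rank 3784, replicate 4). It lay 707 bp upstream of the canonical TSS and 518 bp upstream of Nup44A, which encodes a nuclear pore protein. Near the most downstream TSS, at 7984063, the pooled summit had 36.2 (rank 7024). The replicates did not place that summit alike: replicate 3 had 24.9 (rank 5729) 432 bp upstream of the TSS, and replicate 4 had 32.1 (rank 3036) 93 bp upstream.

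FASN1 (FBgn0283427, 2L, 3056598–3068177, plus strand), which follows its paralog FASN2 on the chromosome, had 2 IDR summits. The one at 3056366 lay in intergenic sequence 232 bp upstream of the first TSS and 623 bp upstream of the canonical one, with a pooled signal of 122.9 (rank 1323). It ranked 1994 in replicate 3 with a signal of 50.4 and 917 in replicate 4 with 71.9. The other, at 3058849, lay in an intron 1860 bp downstream of the canonical TSS, with no TSS of any gene within 1 kb. Its pooled signal was 90.5 (rank 2027), with 39.0 (rank 2844) for replicate 3 and 48.6 (rank 1710) for replicate 4. The promoter summit was thus the higher of the 2 in all of these lists. FASN2 itself had no promoter summit.

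Desat1 (FBgn0086687, 3R, 12439600–12447616, plus strand) has 5 annotated TSSs over several kilobases. The IDR summit in the gene lay in an intron at 12443377, 205 bp upstream of the TSS at 12443582 and 1950 bp downstream of the canonical TSS. Its pooled signal was 95.7 (rank 1882), with 45.3 (rank 2317) for replicate 3 and 51.8 (rank 1560) for replicate 4. A far stronger summit, at 12449203, lay 1587 bp beyond the end of Desat1 and 93 bp upstream of CG18549. It had a pooled signal of 603.1 (rank 53), 316.4 (rank 57) for replicate 3 and 294.7 (rank 45) for replicate 4. A search that takes the strongest summit near Desat1 would therefore return the promoter of its neighbour.

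Zw (FBgn0004057, X, 19667252–19672353, plus strand) also had a promoter summit and an internal one, and here the internal one was the stronger. The promoter summit at 19667100 lay 152 bp upstream of the canonical TSS, inside an exon of the antisense gene asRNA:CR44512. Its pooled signal was 97.7 (rank 1826), with 44.1 (rank 2407) for replicate 3 and 56.3 (rank 1350) for replicate 4. The summit at 19668607 lay in an intron 1355 bp downstream of that TSS and 861 bp upstream of the antisense gene's TSS. It also lay 1115 bp upstream of the TSS at 19669722, the nearest of the 3 annotated Zw TSSs. It reached 457.8 (rank 97), with 269.5 (rank 81) for replicate 3 and 181.1 (rank 144) for replicate 4. ChIP-seq does not tell the strands apart, so neither summit can be given to Zw or to the antisense gene.

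The 3 genes of triglyceride assembly each had 1 IDR summit, and all 3 lay at most 283 bp from a TSS. Gpat4 (FBgn0034971, 2R, 24068757–24073552, plus strand), which adds the first fatty acid to glycerol phosphate, had its summit at 24068838 in sequence annotated as 5′ UTR. That is 81 bp downstream of its first TSS, 212 bp upstream of the canonical one and 353 bp upstream of yki, the coactivator of the Hippo pathway, which is transcribed the other way. The pooled signal was 202.6 (rank 567). The rank was 375 in replicate 3 with a signal of 136.3 and 905 in replicate 4 with 72.1.

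Lpin (FBgn0263593, 2R, 8136986–8156654, minus strand) encodes the phosphatidate phosphatase that makes diacylglycerol. Its IDR summit at 8146264 lay in an intron, 283 bp upstream of the internal TSS at 8145981, which 7 of its 11 annotated transcripts use. The canonical TSS lay 10390 bp further upstream. The pooled signal was 238.5 (rank 411), with 128.1 (rank 430) for replicate 3 and 106.1 (rank 450) for replicate 4. The nearest pooled summit to the canonical TSS, also within 1 kb of a TSS of the overlapping gene kermit, had a signal of 25.0 (rank 16165). It had no counterpart within 100 bp in either replicate. A pooled summit of 35.8 (rank 7179) lay within 1 kb of another kermit TSS.

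The gene mdy (FBgn0004797, 2L, 16816660–16826964, plus strand) encodes midway, an acyltransferase for the last step to triglyceride. Its IDR summit at 16816469 lay 191 bp upstream of the canonical TSS, in an intron of the overlapping gene CG13280. It was the weakest of the 13, with a pooled signal of 77.3 (rank 2485), 33.9 (rank 3417) for replicate 3 and 39.8 (rank 2277) for replicate 4. With the 2767 strongest peaks of replicate 3 alone, mdy lost its promoter summit.

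The lipase gene bmm (FBgn0036449, 3L, 14776496–14786412, minus strand) has a single annotated TSS and 2 strong summits. The one at 14785088 lay in an intron 1324 bp downstream of the TSS, and no TSS of any gene was within 1 kb. Its pooled signal was 363.3 (rank 181), with 197.3 (rank 178) for replicate 3 and 161.7 (rank 191) for replicate 4. The promoter summit at 14786723 lay 311 bp upstream of the bmm TSS and 68 bp upstream of Tdrd3, which is transcribed away from it, and had 198.3 pooled (rank 594), 113.2 (rank 536) for replicate 3 and 85.7 (rank 679) for replicate 4. The intron summit was higher than the promoter summit in all of these lists. A further intron summit, 5078 bp into the gene, had a signal of 67.2 (rank 2984), just under the lowest IDR signal.

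Like most promoter summits of this factor, those of 7 of these 8 genes lay just upstream of a TSS. For the 8 genes, the strongest IDR summit within 1 kb lay upstream of the nearest own TSS in 7, from 152 bp at Zw to 311 bp at bmm, and 81 bp downstream in Gpat4. The median over the 8 was -198 bp, where negative is upstream. Over the 2131 coding genes with such a summit the median was -159 bp (quartiles -283 and -71), and 87.4% lay upstream. In 5 of the 7 such genes with several TSSs, the nearest TSS was not the canonical one: Lpin, Gpat4, FASN1, AcCoAS and Desat1. Over all 961 coding genes with several TSSs and such a summit, that share was 50.3%. With the canonical TSS alone, 5 of the 10 genes had a promoter summit, against 13.6% of all coding genes, and Lpin, AcCoAS and Desat1 no longer did.

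**Figure D2:**
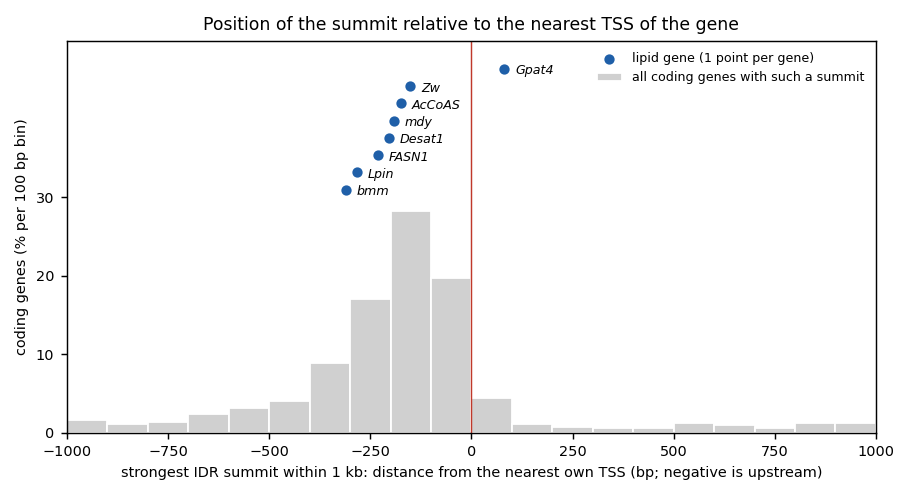
Distance of the strongest IDR summit within 1 kb from the nearest TSS of the gene (x axis, bp, negative is upstream). Points are the 8 lipid genes, stacked only to separate their names, and bars are the percentage of all 2131 coding genes with such a summit in each 100 bp bin; 7 of the 8 points lie between -311 and -152 bp.

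The annotation put 8 of the 13 IDR summits in introns, 3 in intergenic sequence, 1 in a 5′ UTR and 1 in a noncoding exon, and 0 in coding exons. The shares of these features over all IDR summits are not given here, so the counts describe the 13 alone. The intron summits beside ATPCL and mdy were in introns of CG8320 and CG13280, outside the lipid genes, and the other 6 were in introns of the lipid genes themselves. The intron summits of FASN1 and bmm were the 2 of 13 with no TSS of any gene within 1 kb. Over all IDR summits 35.6% had none, but the 13 were taken only from these genes and 2 kb around them. CACGTG was found at 0 of the 13 summits and at 68 of all 2767 (2.46%). Any CANNTG, which includes CACGTG, was present at 7 of the 13 and at 57.7% of all IDR summits. TATCGATA and TCACNCCAC, the core of a sterol response element in mammals, were at 0 of the 13, against 2.71% and 0.47% of all IDR summits. ACAGTG was at 2 of 13 against 19.2%, CAGTGC, which overlaps it by 5 letters, at 3 of 13 against 15.8%, and CGATAG at 2 of 13 against 8.38%. All were searched on both strands from 100 bp before to 100 bp after the summit, and a match shows only that the letters are there.

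The replicates agreed on the strong summits of these genes and differed on most weak ones. Of the 13 IDR summits, 12 had a summit within 100 bp in both replicates, all but that of AcCoAS. The share over all IDR summits was 94.5%. The IDR set was derived from the same replicates and equals the 2767 strongest pooled peaks, so membership alone does not show that a summit recurred. Over the whole range around the 10 genes the pooled list had 50 summits, of which 19 (38.0%) were matched in both replicates, against 33.3% of all pooled summits. The 37 that were not in the IDR set had signals from 22.2 to 67.2 with a median of 27.5, and 7 of them (18.9%) were matched in both, against 24.2% of all such pooled summits. A further 10 of the 50 were matched in neither, against 11.9% of all, and 4 of those 10 were in Lpin. Replicate 3 and replicate 4 had 53 summits each, of which 16 each (30.2%) lay within 100 bp of one in the other, against 24.8% of all replicate 3 summits and 24.1% of all replicate 4 summits. The weak summits included all 5 pooled summits in coding exons, and the share of such summits over the whole pooled list is not given here.

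The 7 weak summits found in both replicates were spread over 5 of the genes. ACC had 3, with pooled signals of 49.4 in an intron, 28.8 in a coding exon and 24.1 past its end in CSN4. AcCoAS had the one of 53.2 beside its IDR summit. Zw had one of 39.8 (rank 5923) at 19666013, 1239 bp upstream of its first TSS in the 3′ UTR of Ssu72, with 21.4 (rank 8090) for replicate 3 and 18.6 (rank 8713) for replicate 4. The other two lay past the ends of Gpat4 and mdy, beside Mlp60A and AspRS-m. Desat1, bmm, FASN1 and Lpin had none within 100 bp, although the bmm intron summit of 67.2 had replicate summits 10 bp away in replicate 3 and 174 bp away in replicate 4. ATPCL had no pooled summit outside the IDR set.

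**Figure D3:**
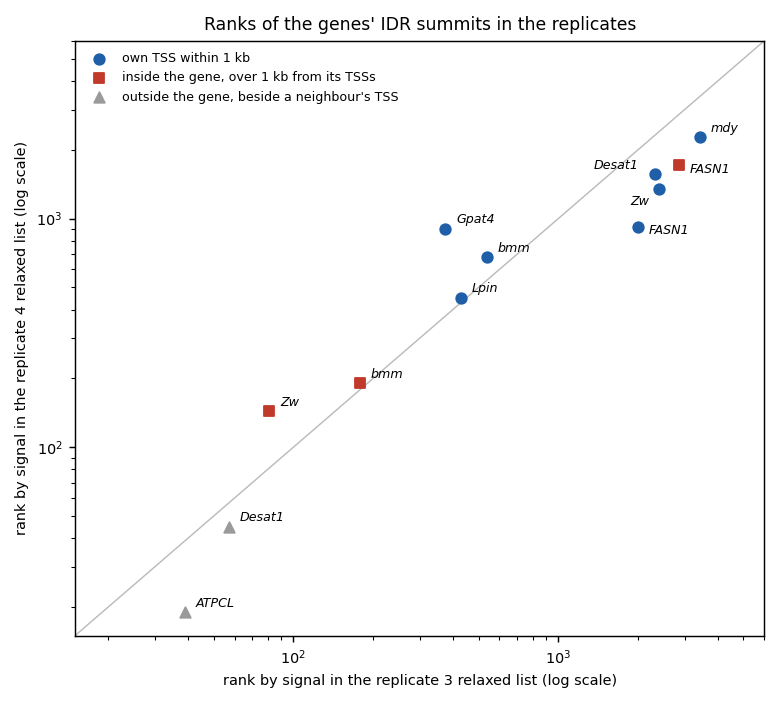
Rank by signal of the 12 IDR summits found in both replicates, in replicate 3 (x axis) and replicate 4 (y axis), both on log scales with 1 the strongest; the line marks equal ranks. Circles lie within 1 kb of a TSS of the named gene, squares inside the gene but farther from its TSSs, and triangles outside the gene at a neighbour's TSS. The 4 best ranks in replicate 3, 39, 57, 81 and 178, belong to the 2 neighbours' summits and to the intron summits of Zw and bmm.

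The strongest summits around these genes were thus not those at their own start sites. By pooled signal the first 4 were the summit beside ATPCL (788.4), the summit beside Desat1 (603.1) and the intron summits of Zw (457.8) and bmm (363.3). The 8 summits at own promoters ran from 77.3 at mdy to 238.5 at Lpin. Among these 8, the summits of Gpat4, Zw and bmm also lay within 1 kb of a TSS of another gene. The ranks of these 8 in the replicates ran from 375 to 3417 in replicate 3, and from 450 to 2277 in replicate 4 without AcCoAS, which had no match there. Gpat4 stood higher in replicate 3 than in replicate 4, and FASN1 the other way. With 1 value per replicate the size of these shifts could not be set against a spread.

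A wider list of 68 genes of lipid metabolism, which includes the 10, put these values in context. It was written with earlier results of these data known, among them the summits at SREBP, Mondo and bigmax, so its counts describe the list and were not tested. Promoter summits were found for 27 of the 68 (39.7%), and for 19 of the 58 that are not among the 10 (32.8%), where 15.3% of all coding genes had one. Over coding genes with 2 or more TSSs the share was 26.0%, and the TSS numbers of the wider list are not given here. Phospholipid synthesis, which holds none of the 10, had 5 of 8. Glycerolipid assembly had 5 of 9, and 2 of 6 without those among the 10. The genes of acetyl-CoA supply and fatty acid synthesis had 2 of 9, which were AcCoAS and FASN1, and those of fatty acid oxidation had 1 of 7.

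In phospholipid synthesis, Pss, a phosphatidylserine synthase gene, had the highest promoter summit of the wider list at 342.3 (rank 203), 240 bp upstream of a TSS. It ranked 207 in replicate 3 and 171 in replicate 4, and Nubp2 shares the summit. Cds, which makes CDP-diacylglycerol, had 175.3 at a summit also near a TSS of Uba2, and Pis, the phosphatidylinositol synthase gene, had 126.1 at one also near Hap40. The ethanolamine kinase gene eas had 163.4 and Pcyt1, which makes CDP-choline, 127.5. Among the acyltransferases beside Gpat4 and mdy, Agpat2 had 122.8 and Agpat4 71.4, which is close to the lowest IDR signal and had no replicate 3 summit within 100 bp. The second glycerol phosphate acyltransferase gene mino and the second diacylglycerol acyltransferase gene Dgat2 had none.

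In the other roles, Hsl, a second lipase gene, had 100.7, 144 bp upstream of its TSS, at a summit shared with Ate1. Seipin, a gene of lipid droplet formation, had 148.9 at a summit shared with Tsp3A. The droplet coat genes Lsd-1 and Lsd-2 had no promoter summit. Pgd, which follows Zw in the pentose phosphate pathway, had 99.0, and the other NADPH sources Men and Idh had none. In elongation, Sc2 had 133.0 at a summit shared with Ubi-p63E, and Baldspot 81.2, with ranks far apart in the replicates (1467 in replicate 3 and 9881 in replicate 4). In lipid transport Mtp had 159.8 and Apoltp 73.5, and in oxidation Mcad had 124.2 at a summit shared with Ank2. Among the regulators, SREBP had 176.4 at a summit shared with CG42637 and Gyc76C, and bigmax had 170.5 at one shared with Hmu. The nuclear receptor gene Hnf4 had 133.3, and Mondo had 81.3 at a summit shared with crc. SCAP, S1P and S2P, which process SREBP in mammals, had none. In the wider list outside the 10, the summits of Pgd, Agpat2, SREBP, Pcyt1, Mtp, eas, Agpat4 and Seipin lay downstream of the nearest own TSS. The distances of these ran from 93 bp at Seipin to 891 bp at Pgd. The others of the 19 promoter summits there lay upstream. Over all coding genes with such a summit 87.4% lay upstream, which is a larger share.

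**Figure D4:**
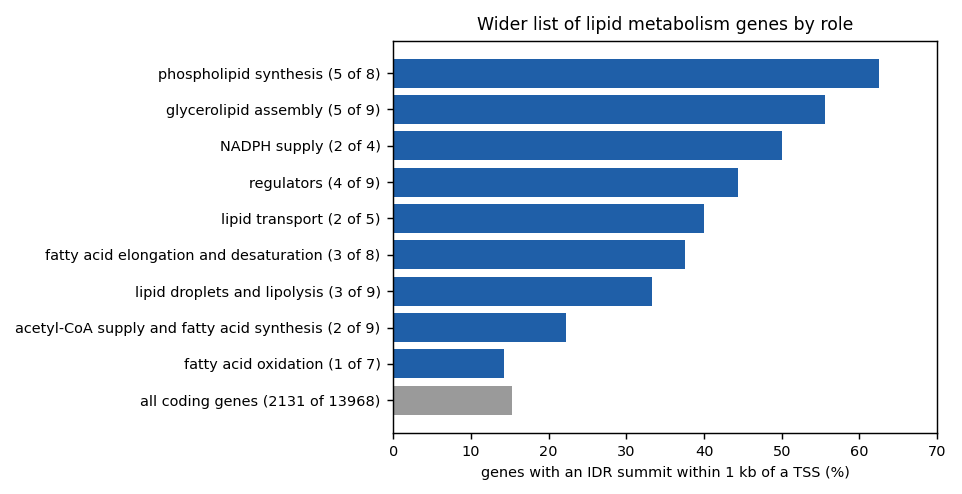
Percentage of genes with a promoter summit (x axis) in each role of the wider list of 68 genes, which includes the 10, with counts in the labels, and over all 13968 coding genes (lowest bar). The bars run from 62.5% for phospholipid synthesis down to 14.3% for fatty acid oxidation, against 15.3% for all coding genes; with 4 to 9 genes per role, 1 gene moves a bar by over 10 points.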

How the data were processed

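Usf-GFP ChIP-seq was analysed in 2 samples of 1 group, embryo replicates 3 and 4. Per the deposited sample notes, the authors made narrowPeak lists on dm3 and dm6, called each replicate and the pooled reads against a control alignment, and derived the IDR set from these lists. The deposited signal per peak (column 7) was used as given. The deposited score in column 9, whose scaling is not stated, served only as another way to rank. Nothing used here names the aligner, the peak caller or the IDR cut-off. Read depth is unknown, so no intervals could be given. The dm3 lists were not used here, since no dm3 annotation was at hand.

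Chromatin had been sheared to 200 to 800 bp, per the labels, which limits how finely a summit can be placed. Summits on dm6 were joined to the Ensembl 115 annotation and the Release 6 genome, both on the dm6 assembly. Coordinates count from 1. Features were taken in the order coding exon, 5′ UTR, 3′ UTR, noncoding exon, intron. Summits within 100 bp were matched between lists. The assignment of summits to genes was tested on planted summits. Python 3.11.15, pandas 2.3.3, numpy 2.4.6 and matplotlib 3.10.9 were used. The wider list was matched by symbol, and CdsA by its synonym Cds.

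The genes, the wider list and the hexamers were chosen with earlier results of these data known, so counts are given beside the share over all features and no test was made. Named were the 10 genes, every gene of the wider list with a promoter summit, and genes sharing those summits; members of the wider list without one were named after their values were seen. Alternatives were other TSS distances, flanks, matching distances and motif windows, the 1383 stronger IDR peaks, each replicate alone, and canonical TSSs alone.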

Additional observations from a re-analysis of the deposited data

How the results depend on the processing

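Counts that moved by over 1.5 times did so with the 1383 stronger IDR peaks, with canonical TSSs and with the motif window. With the stronger peaks, 4 of the 10 genes had a promoter summit (Lpin, Gpat4, FASN1 and bmm), as did 17 of the wider list and 1253 of all coding genes (8.97%), which follows from using fewer peaks. With canonical TSSs alone, 5 of the 10 genes did, against 13.6% of all coding genes. CACGTG lay at 28 of all IDR summits within 50 bp and at 157 within 200 bp, and at 0 of the 13 in either. With 1 replicate alone the count of the 10 genes ran from 7 to 8, of the wider list from 26 to 28 and of coding genes from 2112 to 2155. In the gene or its flank, 8 of the 10 genes had a summit with flanks of 1 kb (19.8% of all coding genes) and 9 with 5 kb (35.4%). With 1 replicate alone the count ran from 8 to 9, and it was 7 with the stronger peaks and 8 without summits outside the gene and over 1 kb from its TSSs, an alternative chosen after seeing the data. Matching within 50 or 200 bp gave 13 and 26 matched pooled summits in place of 19. At 500 bp and at 2 kb from a TSS the count of the 10 genes was 8, against 13.3% and 18.9% of all coding genes. Ranking by column 9 left the strongest pooled summit of all 10 genes in first place, ties included. No paired analysis was possible because there was 1 group and no test.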

Other observations

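The ranges also held weak pooled summits, outside the IDR set, beside other genes. Mlp60A, a muscle LIM protein gene downstream of Gpat4, had pooled summits of 25.0 and 38.9, with 24.3 (rank 6089) in replicate 3 and 11.5 (rank 27829) in replicate 4 at the second. CSN4, a subunit gene of the COP9 signalosome downstream of ACC, had pooled summits of 38.7 and 24.1 lying 204 bp apart, both also within 1 kb of a TSS of CG8726. The mitochondrial aspartyl-tRNA synthetase gene AspRS-m, downstream of mdy, had 39.8, matched in both replicates at 20.5 (rank 9072) and 23.2 (rank 5259).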
